A study of Mus musculus with 2 samples.

Results

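The 9 genes described here are the globin genes of the mouse and a pair of erythroid genes: the alpha-type globins Hba-x, Hba-a1 and Hba-a2, the beta-type globins Hbb-y, Hbb-bh1, Hbb-bs and Hbb-bt, the haem enzyme gene Alas2 and the transcription factor gene Klf1. They were taken by symbol from the 55401 genes of each table, and all 9 were found and lay above 1 FPKM (fragments per kilobase of gene exon after the authors' scaling to library size) in at least 1 library. The data are polyA-selected RNA sequencing of mouse pituitaries at embryonic day E12.5, with 1 library from wild-type embryos and 1 from embryos lacking Dyrk2 (Dyrk2-/-), a protein kinase. The sources used here give neither the strain, nor the number of embryos in a library, nor whether blood was washed out. With 1 library per genotype no p-value was computed, and every 95% interval below reflects the number of fragments counted and leaves out how embryos or dissections vary.

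Haemoglobin is built from paired alpha-type and beta-type chains, each holding a haem group. The mouse makes successive forms. Primitive red cells, which leave the yolk sac and circulate through the embryo, carry chains from the embryonic genes Hba-x (zeta), Hbb-bh1 and Hbb-y (epsilon y), together with adult alpha chains. Definitive red cells, made first by the fetal liver, use the adult genes Hba-a1, Hba-a2, Hbb-bs and Hbb-bt. Alas2 encodes the erythroid form of the enzyme that opens haem synthesis. Klf1 encodes an erythroid factor that binds CACCC boxes and is needed for adult beta globin. The pituitary is not a site of red cell formation, and at this stage vessels are growing around it.

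The genes lie in 2 clusters in GRCm38. On the minus strand of chromosome 7 are Hbb-y (ENSMUSG00000052187) from 103851749 to 103853216, Hbb-bh1 (ENSMUSG00000052217) from 103841637 to 103843164, Hbb-bs (ENSMUSG00000052305) from 103826534 to 103828096 and Hbb-bt (ENSMUSG00000073940) from 103812524 to 103813996. On the plus strand of chromosome 11 are Hba-x (ENSMUSG00000055609) from 32276400 to 32278116, Hba-a1 (ENSMUSG00000069919) from 32283511 to 32284465 and Hba-a2 (ENSMUSG00000069917) from 32296489 to 32297298. In both clusters the embryonic genes stand first in the direction of transcription. Alas2 (ENSMUSG00000025270) lies on the plus strand of chromosome X from 150547375 to 150570638, inside Apex2 on the opposite strand, and Klf1 (ENSMUSG00000054191) on the plus strand of chromosome 8 from 84901928 to 84905291.

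Promoter stretches of 5 globin genes are shown for what embryonic and adult genes have in common there and where they part. Each is the 130 bases just before the RefSeq start of transcription (GRCm38.p6), written in the direction of the gene, and capitals mark matches on either strand to the CACCC core and its longer form CCACACCC, to the GATAA core of Gata sites, to the CCAAT box and to the TATAAA form of the TATA box.
Hbb-y: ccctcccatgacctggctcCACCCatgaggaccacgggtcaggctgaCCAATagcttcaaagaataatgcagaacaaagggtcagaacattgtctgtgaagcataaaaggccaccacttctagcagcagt
Hbb-bs: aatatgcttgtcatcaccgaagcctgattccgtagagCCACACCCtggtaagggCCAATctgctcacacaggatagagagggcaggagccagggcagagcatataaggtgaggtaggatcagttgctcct
Hbb-bt: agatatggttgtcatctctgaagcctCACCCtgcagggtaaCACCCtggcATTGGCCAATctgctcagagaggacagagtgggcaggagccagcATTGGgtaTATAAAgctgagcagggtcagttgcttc
Hba-x: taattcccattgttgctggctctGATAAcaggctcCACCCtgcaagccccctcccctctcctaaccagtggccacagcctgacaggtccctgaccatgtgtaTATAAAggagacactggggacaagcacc
Hba-a1: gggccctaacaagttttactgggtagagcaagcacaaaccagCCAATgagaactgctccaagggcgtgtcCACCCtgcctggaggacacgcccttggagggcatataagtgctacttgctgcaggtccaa
These stretches are chr7:103853208-103853337, chr7:103827929-103828058 and chr7:103813924-103814053 on the minus strand, and chr11:32276470-32276599 and chr11:32283542-32283671 on the plus strand. The stretch of Hba-a2 is not shown because its 250 bases before the start match those of Hba-a1 at 247 positions when shifted by 3 bases.

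All 5 stretches hold the letters CACCC, which form the core of the boxes that Klf1 and related factors bind. In Hbb-bs they begin at position -90 and form part of the longer CCACACCC, where -1 is the base just before the start. Hbb-bt has CACCC at -104 and -89, and Hbb-y has it at -111. In windows from 250 bases before to 50 bases after the start, all 8 genes with a window held CACCC and all 8 held GATAA, the core of sites for Gata1. Across all 32851 promoter windows of that length, 57.5% hold CACCC and 25.4% hold GATAA. CCACACCC, which contains CACCC, was found in Hbb-bs alone among the 8, against 3.56% of all windows. CCAAT was found in 6 of 8 (37.4% of all windows) and TATAAA in 3 of 8 (13.6%). Such matches describe letters and do not show that a factor binds, and their part in the levels given below was not tested.

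The libraries were of nearly equal depth, at 20045819 fragments recovered from the wild-type values and 20115573 from the knockout values. Dyrk2 measured 11.5 FPKM in the wild-type and 1.93 FPKM in the knockout library, 16.8% of the wild-type level (14.6% to 19.2%). All 10 listed pituitary progenitor genes were present in both libraries. Pitx1, a homeobox gene of Rathke's pouch, measured 250 and 227 FPKM. Sex-linked transcripts differed between the libraries: Xist, transcribed from the inactive X chromosome, measured 75 and 14.8 FPKM, and the Y-linked Ddx3y 5.83 and 14.9 FPKM.

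All 7 globin genes were lower in the knockout library, by a similar proportion. Summed over the 7, globin transcripts measured 2435 FPKM in the wild-type and 1865 FPKM in the knockout library, so that the knockout library held 76.6% of the wild-type level (75.3% to 77.8%). The interval of the knockout to wild-type ratio lay wholly below 1 for 8 of the 9 genes, against 22.3% of the 14000 genes that reached 1 FPKM in either library. It lay wholly above 1 for none of the 9, against 17.7% of those genes. Klf1, the remaining gene, had 32 and 35 fragments and an interval from 65.5% to 182% of wild type, too wide to place it. Size classes rest on the log2 ratio with 0.5 FPKM added to both values. By that measure the 7 globins and Alas2 were at least 1.2-fold lower (14.6% of all genes) and none of the 9 was at least 1.2-fold higher (7.27%), but only Hbb-bs was at least 1.5-fold lower (4.56% of all genes). No member was at least 1.5-fold higher (2.06% of all genes) or was 2-fold lower (1.89%) or 2-fold higher (0.857%). The median log2 ratio of the 9 genes was -0.38, and that of all 14000 genes was -0.02. Among the 1546 genes with a mean level at least that of Hbb-bs, 3.56% were at least 1.2-fold lower, and the counting interval lay below 1 for 15.5%. In bulk RNA, less blood in the sample and less globin RNA per red cell cannot be told apart.

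**Figure D1:**
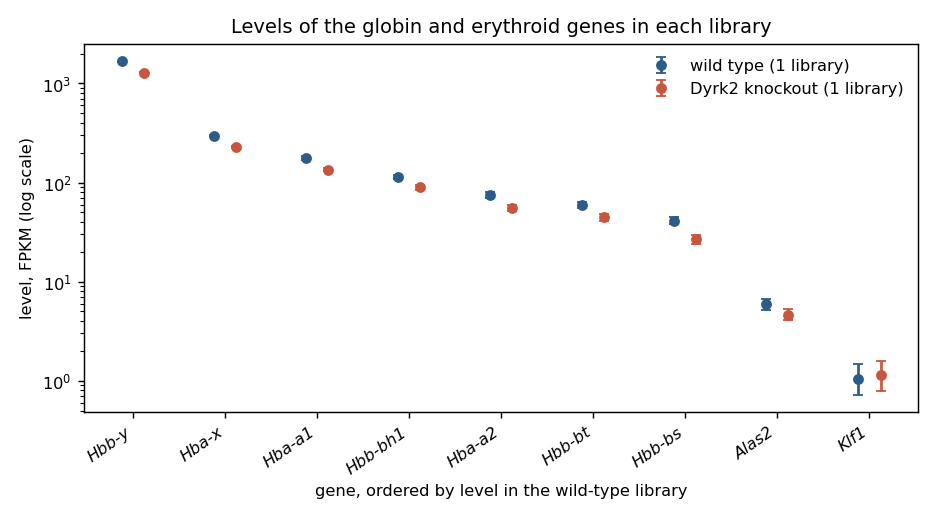
Level of each gene in FPKM (log axis) in the wild-type and the Dyrk2 knockout library, with exact 95% Poisson intervals of the fragment counts. The order of the 9 genes is the same in both libraries, from Hbb-y at 1675 and 1285 FPKM down to Klf1 at 1.04 and 1.13 FPKM, and the 8 genes above Klf1 sit lower in the knockout library.

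The embryonic beta-type gene Hbb-y came first in abundance, and Hbb-bh1 lay behind Hba-x and Hba-a1. Hbb-y, the epsilon y gene of primitive red cells, measured 1675 FPKM (1652 to 1697) in the wild-type and 1285 FPKM (1265 to 1305) in the knockout library. Its level in the knockout library was 76.7% of wild type (75.2% to 78.3%), the narrowest interval of the 9 genes, from 21249 and 16360 fragments. Hbb-bh1, the other embryonic beta-type gene and the earlier of the pair to be expressed in primitive cells, measured 114 and 90.1 FPKM. That is 79.0% of wild type (72.9% to 85.5%). Hbb-y exceeded Hbb-bh1 by 14.7-fold (13.9 to 15.5) in the wild-type and by 14.3-fold (13.4 to 15.2) in the knockout library, and the change in this ratio, 0.972 (0.896 to 1.05), includes no change.

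The adult beta-type genes were present at much lower levels. Hbb-bt measured 59.2 FPKM (55.2 to 63.3) in the wild-type and 44.7 FPKM (41.3 to 48.3) in the knockout library, or 75.5% of wild type (68.0% to 83.8%). Hbb-bs measured 41.4 FPKM (38.2 to 44.7) and 26.7 FPKM (24.2 to 29.4), or 64.5% of wild type (56.8% to 73.1%). Hbb-bs thus stood furthest from equality of the 7 globins. Relative to Hbb-y, its ratio between libraries was 0.840 (0.741 to 0.952), the only one of 8 such comparisons with Hbb-y whose interval leaves out 1. These 8 intervals were not widened for their number, and Hbb-bs was the most extreme of the globins. Set against its neighbour Hbb-bt, the shift of Hbb-bs is less clear. Hbb-bt exceeded Hbb-bs by 1.43-fold in the wild-type and 1.68-fold in the knockout library, and the ratio between these, 1.17, has an interval from 0.997 to 1.38.

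Among the alpha-type genes the embryonic Hba-x had the highest deposited FPKM, an order that turns when shared stretches are left out. Its level over that of the adult genes summed was 1.17 in the wild-type library per exon length and 0.335 per unshared 100-base stretch. Hba-x, which encodes the zeta chain, measured 294 FPKM (286 to 302) in the wild-type and 228 FPKM (221 to 235) in the knockout library, or 77.5% of wild type (74.5% to 80.7%). Hba-a1, an adult alpha gene also active in primitive cells, measured 177 FPKM (171 to 184) and 135 FPKM (130 to 141), or 76.3% of wild type (72.1% to 80.7%). The second adult alpha gene, Hba-a2, measured 74.9 and 55.4 FPKM, or 73.9% of wild type (67.1% to 81.3%). The 3 intervals overlap widely, so no difference in proportion among the alpha-type genes was detectable. The values of Hba-a1 and Hba-a2 may not be independent, since 63.3% and 79.5% of their 100-base stretches are shared. Hba-a1 exceeded Hba-a2 by 2.36-fold and 2.44-fold, with a change of 1.03 (0.925 to 1.15). These genes share most of their sequence, and per unshared stretch the folds were 1.28 and 1.32.

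Alas2 followed the globins and Klf1 could not be placed. Alas2 measured 5.88 FPKM (5.21 to 6.60) in the wild-type and 4.65 FPKM (4.07 to 5.30) in the knockout library, or 79.1% of wild type (66.2% to 94.7%). Its level relative to the 7 globins differed between libraries by a factor of 1.03 (0.868 to 1.23). Alas2 is X-linked, and Xist differed between the libraries as given above. The median log2 ratio of the 520 X-linked genes was -0.01, and the part of sex in the Alas2 values was not tested. Apex2, the gene around Alas2 on the other strand, measured 2.48 and 2.69 FPKM. Klf1 measured 1.04 FPKM (0.712 to 1.47) in the wild-type and 1.13 FPKM (0.790 to 1.58) in the knockout library, from 32 and 35 fragments. Its knockout level was 109% of wild type with an interval from 65.5% to 182%, which holds both equality and the 76.6% of the summed globins.

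Embryonic and adult globins were compared within each library, where the scaling of the libraries has no part. Of beta-type transcripts per exon length, the embryonic genes Hbb-y and Hbb-bh1 made up 94.7% (94.4% to 94.9%) in the wild-type and 95.1% (94.8% to 95.4%) in the knockout library. Of alpha-type transcripts, the embryonic Hba-x made up 53.8% (52.8% to 54.8%) and 54.4% (53.3% to 55.6%). Beta-type globin RNA was thus almost wholly embryonic, whereas alpha-type RNA was mixed, in both libraries. The odds of embryonic to adult transcripts in the knockout library, divided by those in the wild-type library, were 1.08 (0.998 to 1.18) for the beta type and 1.03 (0.963 to 1.09) for the alpha type. Over all globins these odds differed by a factor of 1.04 (0.991 to 1.08). A shift towards the embryonic genes above 1.18-fold for the beta type or 1.09-fold for the alpha type thus lies outside the counting intervals. A difference in either direction within them was not detectable at this depth by exon length. For the beta type the call depends on the length used, since its odds ratio was 1.09 with an interval from 1.001 to 1.18 by fragments and from 1.006 to 1.18 by mRNA length, both just above 1. Summed embryonic globins stood at 77.0% of wild type (75.6% to 78.3%) and summed adult globins at 74.3% (71.3% to 77.4%).

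The levels of the adult genes depend on how fragments shared by near-identical genes were counted, which is not given in the sources used here. Of the 100-base stretches in Hba-a2 transcripts, 79.5% also occur in Hba-a1, and 63.3% of those in Hba-a1 occur in Hba-a2. Hbb-bs shares 49.7% of its stretches with Hbb-bt, and Hbb-bt shares 54.8% with Hbb-bs. None of the stretches of Hba-x, Hbb-bh1, Hbb-y, Alas2 or Klf1 occurs in another gene. With stretches of 50 bases the shared part was larger, at 89.3% for Hba-a2 and 72.3% for Hba-a1. Levels per unshared stretch were computed at 100 bases only and depend on that choice. If all shared fragments had been dropped, levels per unshared 100-base stretch would place the embryonic alpha-type share at 25.1% in the wild-type and 25.7% in the knockout library. The beta-type share would then be 89.6% and 90.2%. By that measure Hba-x, at 329 fragments per kilobase of unshared stretch on the same scale in the wild-type library, falls below Hba-a1 at 551 and Hba-a2 at 431, so the order of the alpha genes is not settled by these files. The division of reads between Hba-a1 and Hba-a2, and between Hbb-bs and Hbb-bt, is uncertain for the same reason. The comparison between libraries hardly moved, with odds ratios of 1.08 (0.994 to 1.17) and 1.03 (0.965 to 1.10).

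**Figure D2:**
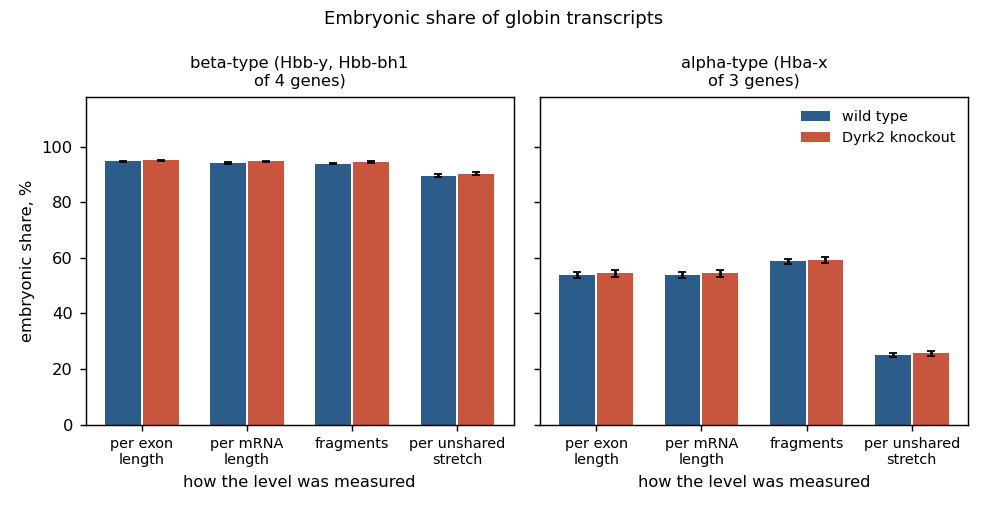
Embryonic share of beta-type and alpha-type globin transcripts in percent, in the wild-type and Dyrk2 knockout libraries, measured per summed exon length, per length of the main mRNA, as plain fragments, and per 100-base stretch not shared with another gene. Error bars are 95% counting intervals. The beta-type share stays between 89.6% and 95.1% and the alpha-type share ranges from 25.1% to 59.3%, with the libraries close to each other in every pair of bars.

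Chains of the alpha and beta type were not equal in RNA. The alpha-type genes summed to 546 FPKM and the beta-type genes to 1889 FPKM in the wild-type library, a ratio of 0.289 (0.282 to 0.296). In the knockout library the sums were 418 and 1446 FPKM, again a ratio of 0.289 (0.281 to 0.297). These ratios differed between libraries by a factor of 1.001 (0.965 to 1.04). Counted per unshared stretch the ratio was 0.554 and 0.550. Between Hba-x and the embryonic beta-type genes alone, which share no stretches with other genes, it was 0.164 (0.160 to 0.169) and 0.166 (0.160 to 0.171). Among the adult genes the order turned, with alpha-type RNA 2.51-fold (2.36 to 2.66) above beta-type RNA in the wild-type and 2.67-fold (2.49 to 2.87) in the knockout library. Per unshared stretch these folds were 3.97 and 4.19. The 7 globins took 0.167% of all fragments (0.165% to 0.169%) in the wild-type and 0.128% (0.127% to 0.130%) in the knockout library.

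Other globin genes served as a comparison. Cygb, which encodes cytoglobin, a globin of fibroblast-like and perivascular cells and not of red cells, measured 7.90 FPKM in the wild-type and 1.83 FPKM in the knockout library. At 23.2% of wild type (18.1% to 29.4%) it lay further from equality than any blood globin. Mb, the myoglobin gene of muscle, measured 3.18 and 3.03 FPKM. The pseudogene Hbb-bh0 rested on 8 and 3 fragments. Hbb-bh2 and Hbb-bh3 were at 0 in both libraries, where 3 fragments on a 1 kb gene equal 0.150 and 0.149 FPKM. Hbq1a, Hbq1b and Ngb, the neuroglobin gene, stayed below the 1 FPKM filter.

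Among genes of the red cell membrane, the 3 largest log2 ratios above the filter were on the lower side and the next was on the higher side. Slc4a1, the band 3 anion exchanger of the red cell membrane, measured 7.82 and 5.23 FPKM, or 66.9% of wild type (59.7% to 74.9%). Kel, a blood group protein gene, measured 1.62 and 0.82 FPKM, or 50.6% (34.9% to 73.4%), and Rhd, another, measured 1.82 and 1.15 FPKM, or 63.2% (40.9% to 97.7%). Add2, a membrane skeleton gene that neurons also express, measured 2.56 and 3.54 FPKM, or 138% (123% to 155%). Of 18 listed membrane genes 10 passed the filter, 4 of them with an interval below 1 and 2 above, where all genes gave 22.3% and 17.7%, and the median log2 ratio was -0.10. The most abundant of the list, the widely expressed skeleton gene Epb41, measured 20.1 and 21 FPKM.

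In the list of iron uptake, receptor and red cell enzyme genes, 7 of 15 genes above the filter had an interval below 1 and 2 above, against 22.3% and 17.7% of all genes. Epor, the erythropoietin receptor gene, measured 1.18 and 0.50 FPKM, or 42.4% of wild type (23.8% to 73.0%), from 47 and 20 fragments. Car2, a carbonic anhydrase of red cells and other tissues, measured 8.45 and 5.25 FPKM, or 62.1% (53.0% to 72.9%), and Trim10, an erythroid ring-finger gene, measured 1.76 and 1.09 FPKM. Genes used by all cells were near level, among them the ferritin genes Ftl1, at 445 and 427 FPKM, and Fth1, at 106 and 99.1 FPKM. Both are nevertheless among the 7, at 96.0% (93.6% to 98.5%) and 93.3% (90.3% to 96.4%) of wild type. Their intervals are narrow because many fragments were counted, 11954 and 7384 in the wild-type library. Prdx2, a peroxidase abundant in red cells and neurons, was slightly higher, at 169 and 183 FPKM. The list median was -0.06. Car1, a carbonic anhydrase of later red cells, was at 0 in both libraries.

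The other genes of haem synthesis were close to level. Of 14 listed genes 12 passed the filter, and the median log2 ratio was -0.03. None was at least 1.5-fold lower (4.56% of all genes) or at least 1.5-fold higher (2.06%). The interval lay below 1 for 3 and above 1 for 2, near the 22.3% and 17.7% of all genes. Alad, an early enzyme of the pathway, measured 21.9 FPKM in both libraries. Urod, a later enzyme, measured 23.3 and 20.9 FPKM. Both enzymes serve haem synthesis in all cell types. The erythroid gene Tspo2 of the same list lay below the filter at 0.08 and 0.09 FPKM. The mitochondrial protein gene Tmem14c was at 114% of wild type (106% to 122%).

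Erythroid transcription factors were mixed. Of 13 listed genes 11 passed the filter, 4 with an interval below 1 and 1 above (22.3% and 17.7% of all genes), and the median log2 ratio was -0.01. Lmo2, an adaptor of the Tal1 and Gata1 complex that endothelium also expresses, measured 7.42 and 5.23 FPKM, or 70.5% of wild type (59.3% to 83.9%). Nfe2, a factor that acts at globin enhancers, measured 1.64 and 1.11 FPKM, or 67.7% (49.2% to 93.9%). Tal1, shared by blood and endothelium, measured 1.49 and 1.84 FPKM, and Ldb1, a cofactor present in most cells, 60.5 and 56.7 FPKM. The interval of Ldb1, from 90.1% to 97.2% of wild type, is among the 4 below 1. Gata1 was at 0.31 FPKM in both libraries from 15 fragments each, below the filter. Transcripts of the erythroid regulators Gata1 and Klf1 were thus scarce beside abundant globin RNA in both libraries.

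**Figure D3:**
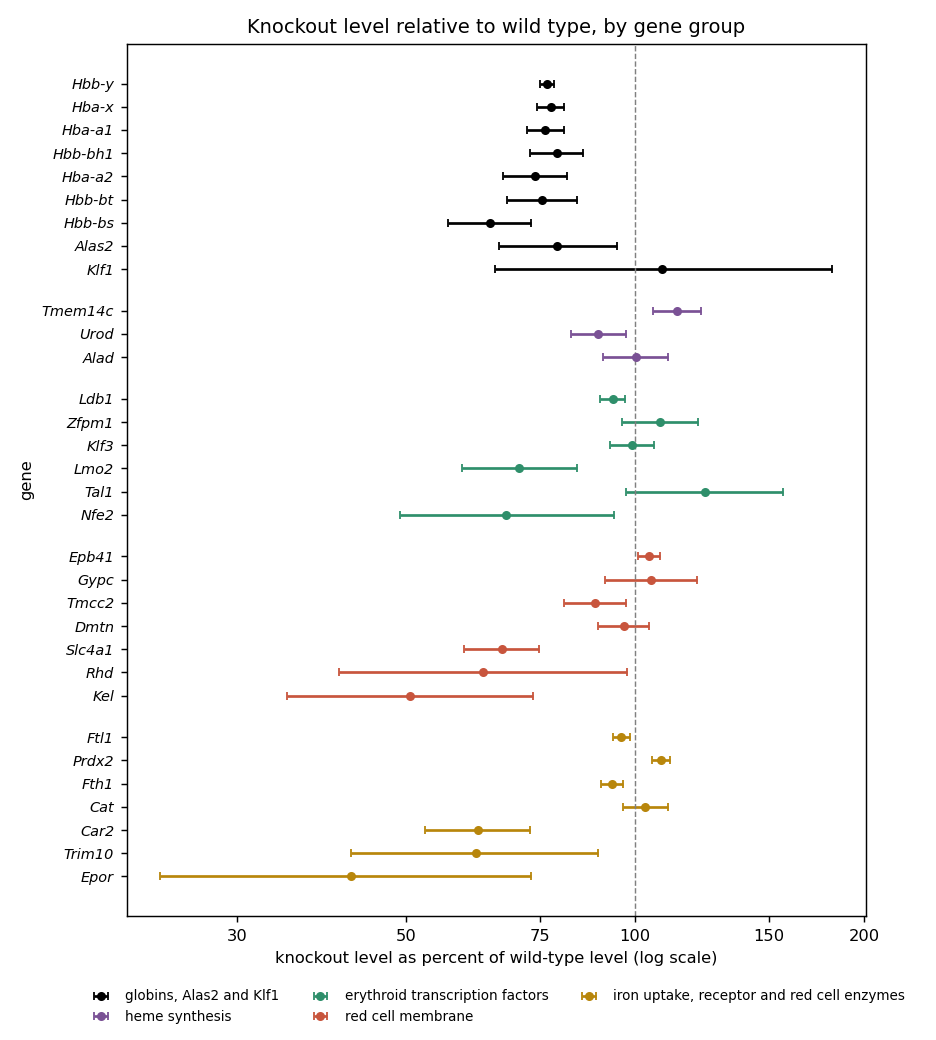
Level in the Dyrk2 knockout library as a percentage of the wild-type level (log axis), with exact 95% counting intervals, for the 9 genes and for genes named from 4 erythroid lists. The 7 globins lie between 64.5% and 79.0%, Slc4a1, Kel, Rhd, Car2, Trim10 and Epor lie between 42.4% and 66.9%, and the most abundant gene of each list lies between 93.6% and 114%. Lmo2, also among the abundant transcription factors, lies at 70.5% and Nfe2 at 67.7%. Tal1 lies on the higher side, at 123% (97.3% to 156%). Add2, named in the text at 138% of wild type, is not plotted.

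Other cell types of the blood and vessels did not share 1 direction. The counts of intervals below and above 1 are read against 22.3% and 17.7% of all genes. Endothelial markers, for the vessels that carry the blood, summed to 135 FPKM in the wild-type and 149 FPKM in the knockout library, with 1 of 11 intervals below 1 and 5 above. Cdh5, an endothelial cadherin, was at 116% of wild type (110% to 124%). Platelet and megakaryocyte markers summed to 24.2 and 21.4 FPKM. None of the 6 above the filter had an interval off 1, and Pf4, a platelet chemokine, measured 9.41 and 8.48 FPKM. Macrophage and leukocyte markers summed to 45.3 and 39.1 FPKM with a median of -0.23, 4 of 13 intervals below 1 and 1 above. The log2 ratio was below 0 for 9 of these 13 and above 0 for 4. The share of all genes below 0 was not computed, and the median of all genes was -0.02. C1qb, the most abundant of the list, measured 7.38 and 7.54 FPKM. Tyrobp, an adaptor of myeloid receptors, measured 5.31 and 3.20 FPKM, and Fcer1g 3.54 and 4.55 FPKM. The neutrophil gene Elane was at 0 in both. Markers of the pituitary itself were also mostly lower. The 10 progenitor genes summed to 783 and 711 FPKM, with 6 intervals below 1 and 1 above and a median of -0.15. Lhx4, Isl1 and Six6, homeobox genes of the developing gland, were at 64.1% (57.9% to 70.8%), 73.0% (67.1% to 79.5%) and 73.1% (70.6% to 75.7%) of wild type. Lhx3, another, was higher, at 73.0 and 85.9 FPKM. The part of tissue composition, vessel content, dissection or bleeding in the lower globin levels was not tested.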

How the data were processed

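Total RNA of 2 samples was measured with 1 stranded, polyA-selected library each, per the labels' protocols. The authors deposited FPKM, scaled to the fragments counted in genes, beside each gene's summed exon length. The submitters' processing notes list cutadapt 1.9.1, HISAT2 2.0.1 and the build GRCm38. How fragments were counted and shared fragments assigned is not given in the sources used here. This scaling lets abundant transcripts shift all others.

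Of 55401 genes, 55141 were matched to symbols of GENCODE M21. Fragments were recovered from FPKM multiplied by length, whose low values move in whole steps: all 1512 and 1372 values checked (under 100 fragments, rounding error under 0.05) were whole within 0.1. Single-gene intervals are exact Poisson (levels) or Clopper-Pearson (ratios), and those of sums and ratios of ratios come from Poisson errors on the log scale. Log2 ratios (knockout over wild type) used 0.5 FPKM added. Genes of at least 1 FPKM in either library were kept. Promoter windows came from RefSeq (GRCm38.p6), where 8 of 9 genes matched, and shared stretches from GENCODE M21 transcripts. Recovery of depth and fragments and the single-gene ratio intervals were tested on simulated Poisson counts without variation between embryos. Shares and ratios of ratios were not tested in this way. Python 3.11.15, scipy 1.17.1 and pandas 2.3.3 were used.

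The 9 genes and 10 comparison lists were chosen with earlier results of these data known, as were motifs. From each list the 4 most abundant genes and the 3 with the largest log2 ratio were named, besides Dyrk2, except for genes that are not reported here. Named after their values were seen were Xist, Ddx3y, Apex2, Add2, Tspo2, Gata1, Car1, Elane, Hbb-bh2, Hbb-bh3, Hbq1a, Hbq1b and Ngb. The 1.2-fold class, the counting-interval class, the mRNA length and the unshared stretches were added after the data were seen. Alternatives were other pseudocounts, filters, scalings and lengths.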

Additional observations from a re-analysis of the deposited data

How the results depend on the processing

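No paired analysis was possible because each genotype has a single library. The log2 ratios of the 9 genes kept their direction with 0.1 or 2 FPKM added, with upper-quartile scaling, with a trimmed mean of log ratios and with totals without globin genes. Their values moved by less than the counting interval, except that of Hbb-y, which was -0.41 with upper-quartile scaling. The counts of members per 1.5-fold and 2-fold class were the same with no filter, with 5 FPKM (8 members kept) and with the trimmed mean. The beta-type embryonic share in the wild-type and knockout libraries was 93.9% and 94.4% by fragments, 94.2% and 94.7% by mRNA length, 89.6% and 90.2% by unshared stretches, and 94.3% and 94.7% without Hbb-bh1. The alpha-type share was 58.7% and 59.3% by fragments, and 25.1% and 25.7% by unshared stretches. The alpha-type to beta-type ratio was 0.390 and 0.391 by fragments, 0.337 and 0.338 by mRNA length, and 0.554 and 0.550 by unshared stretches. The odds ratios between libraries moved by less than their intervals under these lengths. By fragments and by mRNA length the beta-type odds ratio was 1.09, with a lower interval limit of 1.001 and 1.006, just above 1. The median of the other globins was -0.039 over 8 genes with no filter and -1.85 with 5 FPKM, where 1 gene, Cygb, was left. The blood progenitor median was -0.12 with 5 FPKM, against 0.01. Depth limits Klf1, Gata1 and Epor, and the single library per genotype limits every comparison.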

Other observations

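In the list of blood progenitor genes, Hlf, a transcription factor gene of stem cells that neurons and other tissues also express, measured 10.5 FPKM in the wild-type and 3.13 FPKM in the knockout library, or 29.8% of wild type (26.7% to 33.3%). Kit, the stem cell factor receptor gene, measured 4.78 and 5.75 FPKM, or 120% of wild type (110% to 132%). Cd34, shared by progenitors and endothelium, measured 9.39 and 7.90 FPKM. The median log2 ratio of the 6 genes above the filter was 0.01. An interval below 1 was found for 2 and above 1 for 1, against 22.3% and 17.7% of all genes. The summed globins exceeded Alas2 by 415-fold (369 to 466) in the wild-type and by 401-fold (351 to 457) in the knockout library, per exon length.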
